A study of Homo sapiens with 4 samples.

Results

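The G1 cyclins and cyclin-dependent kinases (CDKs) studied here are 10 genes: the D-type cyclins CCND1, CCND2 and CCND3, the E-type cyclins CCNE1 and CCNE2, the kinases CDK4, CDK6 and CDK2, and the cofactors CKS1B and SKP2. Their members are the array's probe sets, groups of short probes against one transcript, whose single annotated symbol is one of these genes, which gave 27 of 54675 probe sets, or 10 of 19775 genes with a single symbol. RNA came from HCT116 cells, a human colon carcinoma line long established in culture, in the versions labelled wt/GFP and wt, where the GFP construct is not described further. The groups were spheroids of wt/GFP and wt (2 arrays), which are rounded multicellular aggregates, and monolayers of wt/GFP and wt (2 arrays), which spread on a flat surface. Each line and culture had 1 array, so spheroids were compared with monolayers within each line. The study profiled expression to characterise how cells in spheroids differ from cells in monolayers. No drug or other treatment is named in the labels, and the age of the cultures is not given in the sources used here.

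D-type cyclins are made in response to growth signals and activate CDK4 and CDK6, which phosphorylate the retinoblastoma protein and so release E2F transcription factors. E2F factors raise the transcription of the E-type cyclins, which activate CDK2 at the start of DNA synthesis. SKP2, the substrate receptor of an SCF ubiquitin ligase, together with CKS1B marks the CDK inhibitor p27 for degradation, which frees CDK2. In colon carcinoma cells CCND1 is known as a target of Wnt and RAS signalling.

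All 4 arrays had the same trimmed mean signal of 500.1, but the median signal was 68.4 (wt/GFP) and 67.3 (wt) in spheroids, against 48.8 (wt/GFP) and 48.0 (wt) in monolayers. The ratio of 3′ to 5′ signal for ACTB was 1.73 (wt/GFP) and 1.76 (wt) in spheroids, against 1.30 (wt/GFP) and 1.32 (wt) in monolayers, and its part in the changes below was not tested. For GAPDH the ratio was 0.951 (wt/GFP) and 0.868 (wt) in spheroids, against 0.882 (wt/GFP) and 0.897 (wt) in monolayers, so the cultures overlapped. The bacterial and phage transcripts added as hybridisation controls had a median log2 difference, spheroids minus monolayer, of 0.78 for wt/GFP and 0.39 for wt. Of 32768 probe sets tested across the array, 8342 (25.5%) were called higher and 4795 (14.6%) lower in spheroids, which together is 40.1%. Higher calls were 63.5% of all calls as deposited, 48.6% with quantile normalization, 32.7% with median centring and 26.6% with arrays scaled on the hybridisation controls. The median log2 change of all tested probe sets was 0.23, -0.03, -0.16 and -0.25 under these 4 scalings. The colon epithelial markers EPCAM, KRT8, KRT18 and KRT19 had signals between 16250 and 32970 on all arrays, CDH1 had 889 to 4866 and KRT20 112 to 832, and CDX2 and VIL1 were dim, at 33.1 to 81.6 and 16.1 to 90.7. Summed signals of 3 leukocyte markers were 39.7 (wt/GFP) and 110 (wt) in spheroids, against 52.4 (wt/GFP) and 90.9 (wt) in monolayers. The sum of 4 fibroblast genes was 3960 (wt/GFP) and 2403 (wt) in spheroids, against 431 (wt/GFP) and 409 (wt) in monolayers. COL1A1 alone of the 3 tested was called higher, and COL1A2 was too dim to be tested, with signals of 7.475 to 28.64. The part of these 4 genes in the results below was not tested. Of 3 endothelial markers 1 was tested and it was not called, with summed signals of 270 (wt/GFP) and 211 (wt) in spheroids, against 117 (wt/GFP) and 134 (wt) in monolayers. Of 4 listed low oxygen markers, CA9 had no probe set with its single symbol, and VEGFA, ANKRD37 and NDRG1 were all called higher. Among colon epithelial markers 5 of 8 were called higher as deposited. EPCAM and KRT19 rose by 0.376 and 0.398 log2 units, and VIL1, CDH1 and KRT20 by 1.417, 2.356 and 2.505. This count was not taken under the other scalings.

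Of the 10 genes, 9 fell in spheroids on the brightest probe set of each, and the exception was CCND2. The log2 changes of these 9 ranged from -2.02 for CCNE2 to -0.64 for CCNE1. Over single probe sets, 21 of the 27 exceeded the brightness threshold for testing (a mean log2 value of 5.48 over all arrays), and of these 17 were called lower, 0 higher and 4 were not called, where 25.5% of all tested probe sets were called higher and 40.1% in either direction. A call is an adjusted p under 0.05 in limma, which moderates each probe set's error across the array. Over the whole array 14.6% of tested probe sets were called lower, and 17.7% of genes were called lower on their brightest probe set. The median log2 change was -0.96 over the 21 tested probe sets and 0.23 over all tested probe sets. Because the arrays measured whole cultures, fewer cycling cells and less of these transcripts per cell cannot be told apart. The counts rest on moderation with a trend: without the trend in limma 4 of the 17 remained called, namely both CCNE2 probe sets, CDK2 211804_s_at and SKP2 203625_x_at. In that setting 677 of all 32768 tested probe sets, or 2.07%, were called lower.

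**Figure D1:**
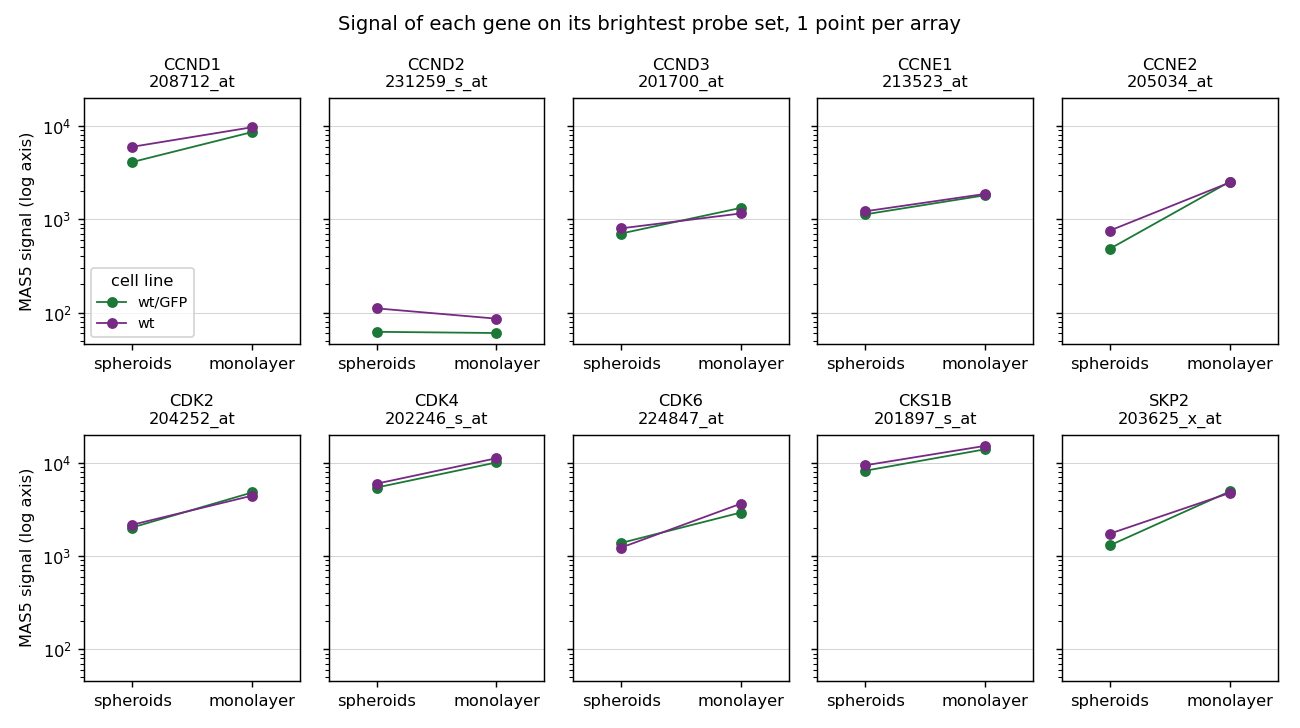
MAS5 signal (log axis) of each gene on its brightest probe set, with 1 point per array, spheroids left of monolayers and a line joining the arrays of each cell line (green wt/GFP, purple wt). In 9 genes both spheroid arrays lie below both monolayer arrays, and CCND2 stays between 60.3 and 111 with overlapping groups.

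Among the D-type cyclins, CCND1, which links growth signals to CDK4 and CDK6, was measured by 2 probe sets. On 208712_at its signal was 4106.5 (wt/GFP) and 5982.4 (wt) in spheroids, against 8608.9 (wt/GFP) and 9698.1 (wt) in monolayers. Both spheroid signals lay below both monolayer signals, and the log2 change was -0.88 ± 0.13 (moderated SE, 2 arrays per culture; limma adjusted p = 3.23e-06). The other probe set, 208711_s_at, had 2141.2 (wt/GFP) and 1537.1 (wt) in spheroids, against 5717.2 (wt/GFP) and 7082 (wt) in monolayers. It fell by 1.80 ± 0.14 log2 units, or 3.49-fold, against 1.84-fold on the first (adjusted p = 1.63e-10). The groups again did not overlap. The lines moved by unequal amounts and in opposite order on these probe sets: the log2 change of 208712_at was -1.06 in wt/GFP and -0.70 in wt, and that of 208711_s_at was -1.41 in wt/GFP and -2.19 in wt.

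CCND3, the D-type cyclin best known from lymphoid cells, was lower on 201700_at. Its signal was 703 (wt/GFP) and 799 (wt) in spheroids, against 1325.1 (wt/GFP) and 1155.1 (wt) in monolayers. The groups did not overlap, and the log2 change was -0.71 ± 0.15 (limma adjusted p = 0.000357). A dim second probe set, 1562028_at, had 61.9 (wt/GFP) and 72.5 (wt) in spheroids, against 44.7 (wt/GFP) and 19.4 (wt) in monolayers. It was the single tested probe set with both spheroid arrays above both monolayer arrays, but its change of 0.87 ± 0.52 was not called (adjusted p = 0.194).

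CCND2, the third D-type cyclin, had low signals on all 4 of its probe sets. The brightest, 231259_s_at, had 62.2 (wt/GFP) and 111 (wt) in spheroids, against 60.3 (wt/GFP) and 86.0 (wt) in monolayers. These groups overlapped, and the change of 0.18 ± 0.40 was not called (limma adjusted p = 0.763) and turned negative under the other 3 scalings. Its 3 other probe sets did not reach the threshold, with signals between 3.38 and 66.3. A change of CCND2 was thus not detected, and its low signals limit what can be seen.

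CDK4 and CDK6 encode the kinases that D-type cyclins activate. CDK4 had 1 probe set, 202246_s_at, with a signal of 5417.1 (wt/GFP) and 5959 (wt) in spheroids, against 10067 (wt/GFP) and 11173 (wt) in monolayers. Both lines moved by nearly the same amount, by -0.89 in wt/GFP and -0.91 in wt on the log2 scale, and the groups were clearly apart. The mean log2 change was -0.90 ± 0.12, or 1.86-fold lower (adjusted p = 1.38e-06).

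The CDK4 promoter is printed because it holds 3 copies of the E-box CACGTG, the element bound by MYC and related factors, as well as 3 GC boxes. The 250 bases before the RefSeq start site (GRCh38.p14, chr12:57752311-57752560, minus strand) read as follows, with capitals marking E-boxes and GC boxes (GGGCGG), each searched on both strands.
CDK4: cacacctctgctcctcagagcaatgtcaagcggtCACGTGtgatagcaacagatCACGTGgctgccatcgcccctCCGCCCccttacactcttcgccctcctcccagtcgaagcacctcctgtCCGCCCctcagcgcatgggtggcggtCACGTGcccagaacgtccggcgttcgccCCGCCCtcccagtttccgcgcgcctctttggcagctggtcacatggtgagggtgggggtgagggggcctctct
The E-boxes begin 216, 196 and 101 bases before the start site. At least 1 E-box was found in 6.34% of 35116 RefSeq promoters of the same length and at least 3 in 0.0797%, and CDK4 was the only one of the 6 genes with a promoter in the table (CCND3, CCNE1, CDK4, CDK6, CKS1B and SKP2) to hold any.

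CDK6, the second partner kinase of the D-type cyclins, had 7 probe sets, of which 6 were tested. On the brightest, 224847_at, its signal was 1378.4 (wt/GFP) and 1228.5 (wt) in spheroids, against 2924.8 (wt/GFP) and 3637.6 (wt) in monolayers. The groups did not overlap, and the log2 change was -1.32 ± 0.14 (limma adjusted p = 1.33e-08). Of the 5 other tested probe sets of the gene, 3 were called lower, with changes of unequal size. On 243000_at the signal was 57.3 (wt/GFP) and 123 (wt) in spheroids, against 525 (wt/GFP) and 371 (wt) in monolayers, with a log2 change of -2.20 ± 0.29 (adjusted p = 7.39e-07). On 224848_at it was 820 (wt/GFP) and 637 (wt) in spheroids, against 1067.3 (wt/GFP) and 1109.3 (wt) in monolayers, with a change of -0.58 ± 0.15 (adjusted p = 0.00326). Both of these probe sets had spheroids below monolayers in each line. The second lost its call without the monolayer array of either line, in fits that also left out cell line. On 224851_at the lines disagreed: the signal was 272 (wt/GFP) and 141 (wt) in spheroids, against 264 (wt/GFP) and 455 (wt) in monolayers. Its mean change of -0.78 ± 0.28 (adjusted p = 0.0265) rested on wt, since the change was 0.042 for wt/GFP against -1.60 for wt. Without the wt spheroid array it was -0.34, and without the wt monolayer array -0.40. These fits also left out cell line, so the remaining wt array still entered them. The dim probe sets 235287_at and 207143_at had changes of -0.96 ± 0.47 and -0.70 ± 0.57 and were not called (adjusted p = 0.111 and 0.359), and 231198_at was not tested, with signals of 9.54 to 53.7.

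**Figure D2:**
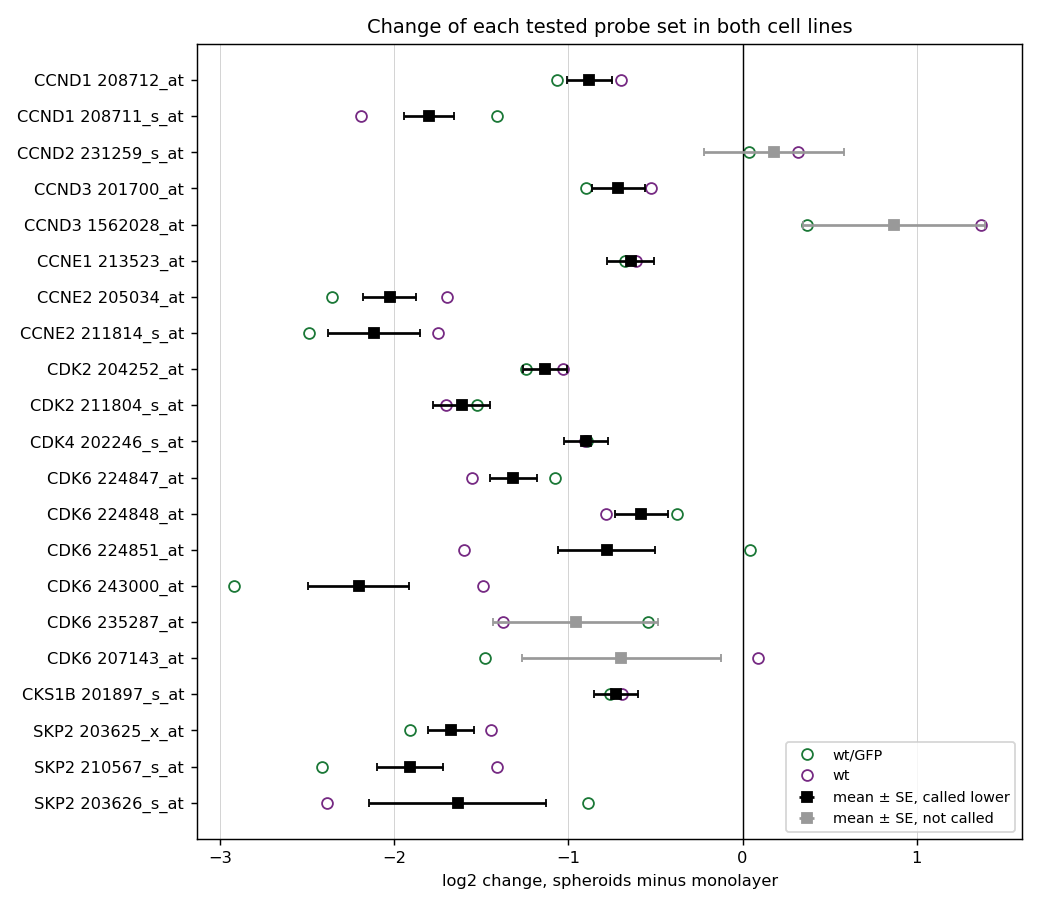
Log2 change in spheroids relative to monolayers (x axis) for the 21 tested probe sets (rows), with open circles for each cell line (green wt/GFP, purple wt) and squares for the mean with its moderated SE, black where called lower and grey where not called. The 17 called means lie between -2.20 and -0.58, and 224851_at of CDK6 has its wt/GFP circle at 0.042.

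The E-type cyclins CCNE1 and CCNE2 activate CDK2. Their falls on the brightest probe sets were of unequal size, a difference that was not tested. CCNE2 on 205034_at had a signal of 483 (wt/GFP) and 756 (wt) in spheroids, against 2528.1 (wt/GFP) and 2479.5 (wt) in monolayers. The monolayer arrays nearly coincided and both spheroid arrays were far below them. The log2 change of -2.02 ± 0.15, or 4.07-fold lower, was the largest of the 10 genes on their brightest probe sets (limma adjusted p = 4.59e-11), and 0.32% of all tested probe sets had a more negative change. A second CCNE2 probe set, 211814_s_at, had 67.9 (wt/GFP) and 116 (wt) in spheroids, against 446 (wt/GFP) and 423 (wt) in monolayers. It fell by 2.12 ± 0.26 log2 units (adjusted p = 2.95e-07), so both probe sets of the gene gave about the same change.

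CCNE1 on 213523_at had a signal of 1129.4 (wt/GFP) and 1218.7 (wt) in spheroids, against 1810.9 (wt/GFP) and 1871.8 (wt) in monolayers. The 2 arrays of each culture were close together and the cultures did not overlap. The log2 change of -0.64 ± 0.13, or 1.56-fold lower, was the smallest of the 9 called genes (limma adjusted p = 0.000316). The other CCNE1 probe set, 242105_at, was not tested, with signals of 2.71 to 14.7.

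The CCNE1 promoter is shown beside the smallest fall of the group, because its start is the richest in GC boxes among the promoters examined. The 250 bases before the RefSeq start site (GRCh38.p14, chr19:29811741-29811990, plus strand) have capitals at GC boxes.
CCNE1: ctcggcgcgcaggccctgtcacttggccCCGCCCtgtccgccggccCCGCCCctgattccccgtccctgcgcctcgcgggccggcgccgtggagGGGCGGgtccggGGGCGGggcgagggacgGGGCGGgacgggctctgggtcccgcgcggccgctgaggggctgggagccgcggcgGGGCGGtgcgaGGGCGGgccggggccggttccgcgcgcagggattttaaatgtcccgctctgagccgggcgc
It holds 7 GC boxes, which 1.12% of all promoters match or exceed, whereas at least 1 occurs in 42.6% of all promoters. No match to the E2F site, spelled TTTCCCGC, TTTCGCGC, TTTGCCGC or TTTGGCGC on either strand, was found in this window or in the other member promoters (0 of 9 start sites of 6 genes), and 2.79% of all promoters hold one. This says only that these letters are not in the windows read.

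CDK2, the kinase that E-type cyclins activate, had a signal on 204252_at of 2019.4 (wt/GFP) and 2160.2 (wt) in spheroids, against 4794.8 (wt/GFP) and 4429.5 (wt) in monolayers. Spheroids were lower in each line with no overlap, and the log2 change was -1.14 ± 0.12 (limma adjusted p = 3.97e-08). On 211804_s_at the signal was 378 (wt/GFP) and 340 (wt) in spheroids, against 1114.1 (wt/GFP) and 1136.9 (wt) in monolayers, and fell by 1.61 ± 0.16 log2 units (adjusted p = 8.51e-09). The third CDK2 probe set, 211803_at, lay just below the threshold for testing at a mean log2 value of 5.45, and its 4 signals, between 5.53 and 71.6, moved in opposite directions in the lines.

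SKP2, the receptor that brings p27 to its ubiquitin ligase, was called lower on all 3 of its probe sets. On the brightest, 203625_x_at, the signal was 1299.2 (wt/GFP) and 1734.7 (wt) in spheroids, against 4919.8 (wt/GFP) and 4738.6 (wt) in monolayers. The groups were well apart, and the log2 change was -1.68 ± 0.13, or 3.20-fold lower (limma adjusted p = 1.25e-10). The suffix x marks probe sets in which some probes can match other sequences, so the other probe sets matter here. On 210567_s_at the signal was 222 (wt/GFP) and 458 (wt) in spheroids, against 1244.4 (wt/GFP) and 1237.1 (wt) in monolayers, a change of -1.91 ± 0.19 (adjusted p = 6.64e-09). On 203626_s_at it was 37.5 (wt/GFP) and 12.8 (wt) in spheroids, against 81.1 (wt/GFP) and 126 (wt) in monolayers, a change of -1.64 ± 0.51 (adjusted p = 0.0112). All 3 SKP2 probe sets thus had spheroids below monolayers. The third lost its call without the wt spheroid array (change -1.166) or the wt monolayer array (change -1.355), in fits that also left out cell line. The sequence before the SKP2 start site (GRCh38.p14, chr5:36151861-36152110, plus strand) is printed for comparison with that of its cofactor CKS1B, and has capitals at its GC box.
SKP2: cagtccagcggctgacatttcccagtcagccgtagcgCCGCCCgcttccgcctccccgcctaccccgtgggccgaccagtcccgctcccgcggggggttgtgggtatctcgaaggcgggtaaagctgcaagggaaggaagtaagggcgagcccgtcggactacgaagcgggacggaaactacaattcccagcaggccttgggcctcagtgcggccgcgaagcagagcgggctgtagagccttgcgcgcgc
It holds 1 GC box and no match to the other elements searched.

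CKS1B, the small CDK-binding protein that SKP2 needs to recognise p27, had 1 probe set, 201897_s_at. The signal was 8212.8 (wt/GFP) and 9387.8 (wt) in spheroids, against 13940 (wt/GFP) and 15169 (wt) in monolayers. Spheroids were lower by similar amounts in the lines, -0.76 in wt/GFP and -0.69 in wt, and the groups did not overlap. The mean log2 change was -0.73 ± 0.13, or 1.65-fold lower (limma adjusted p = 3.96e-05). The sequence before the CKS1B start site (GRCh38.p14, chr1:154974431-154974680, plus strand) is shown because it combines CCAAT boxes with a cell cycle genes homology region (CHR), elements known from promoters of late cell cycle genes. Capitals mark CCAAT boxes (spelled CCAAT), the CHR (spelled TTTGAA, with the variant spelling TTCGAA also searched) and GC boxes, on both strands.
CKS1B: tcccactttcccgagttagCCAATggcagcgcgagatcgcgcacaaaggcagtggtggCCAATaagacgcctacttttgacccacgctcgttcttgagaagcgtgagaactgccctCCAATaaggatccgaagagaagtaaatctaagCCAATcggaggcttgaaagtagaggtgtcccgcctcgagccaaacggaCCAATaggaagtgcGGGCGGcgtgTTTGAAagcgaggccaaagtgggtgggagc
CKS1B has 5 CCAAT boxes, a number that 0.319% of all promoters match or exceed, and the CHR begins 30 bases before the start site. Over all promoters 14.3% hold a CHR and 32.0% at least 1 CCAAT box, and no element searched overlapped another in these windows. A match describes the letters and is not evidence of binding.

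Across the 21 tested probe sets, 17 had both spheroid signals below both monolayer signals, 1 had them above and 3 overlapped. Over the whole array 24.0% of tested probe sets had both spheroid signals below, and 45.3% had both above. Relative to the median of all tested probe sets, the changes of CCND1 (208712_at), CDK4 and CKS1B were -1.11, -1.13 and -0.96, and those of SKP2 (203625_x_at) and CCNE2 (205034_at) were -1.91 and -2.26. Of the 17 called probe sets, 10 had the larger fall in wt/GFP and 7 in wt. The difference between the lines' changes could not be tested, since 1 array per line and culture leaves no error for it. CCNE2 (205034_at) had a log2 change of -2.36 in wt/GFP and -1.70 in wt, and SKP2 (203625_x_at) had -1.91 in wt/GFP and -1.44 in wt. In both genes the monolayer signals of the lines lay close together and the spheroid signals apart.

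**Figure D3:**
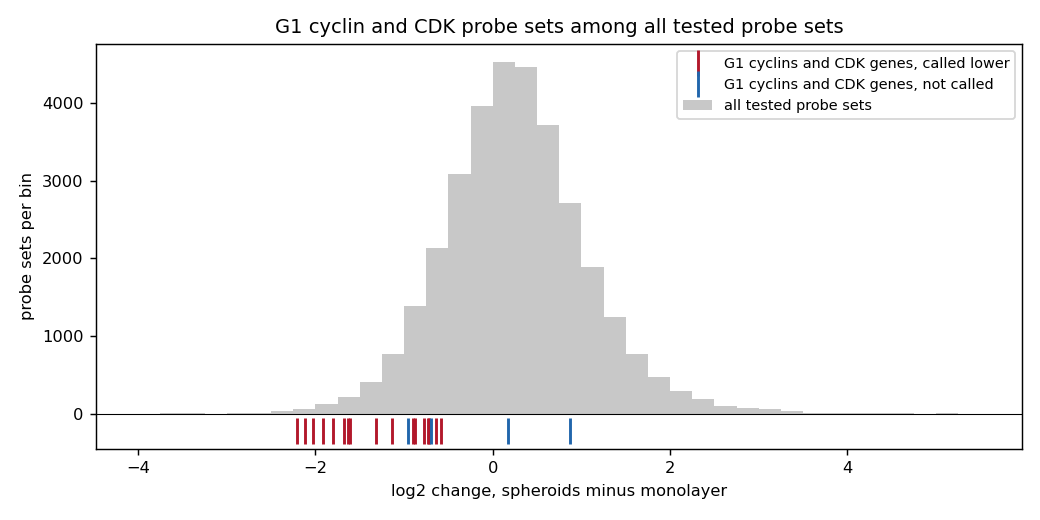
Histogram of the log2 change, spheroids minus monolayers, over the 32768 tested probe sets (grey bars, probe sets per bin), with ticks under it for the 21 tested G1 cyclin and CDK probe sets (red called lower, blue not called). The red ticks lie between -2.20 and -0.58, left of the median of all probe sets at 0.23.

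The lines themselves were compared in the same fit. Over the whole array 6 probe sets, 0.0183% of those tested, differed between wt/GFP and wt, and 0 of them belonged to these genes in limma. The fits without 1 array left out culture in this comparison. The culture change then entered their error, so they cannot show how firm these 6 calls are. At an unadjusted p under 0.05, 2 of the 21 probe sets differed, against 1882 of all 32768: CCND1 208712_at with a log2 difference of -0.36 and SKP2 210567_s_at with -0.50, wt/GFP minus wt. The smallest adjusted p was 0.724.

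The regulators around these genes were described on the brightest probe set of each gene. Of 37 listed partner genes, 36 were tested, and 14 were called lower and 6 higher, where 17.7% of all genes were called lower and 29.6% higher. With quantile normalization 19 were called lower and 6 higher (19.9% and 22.5% of all genes), with median centring 27 and 5 (31.5% and 15.8%), and with scaling on the hybridisation controls 25 and 4 (30.9% and 11.7%). These lists were written with results of the data known and are given as counts.

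All 6 genes of the later cyclin and CDK list were called lower, with a median log2 change of -1.68. CCNA2, the cyclin of S phase, had a signal of 1093 (wt/GFP) and 1286 (wt) in spheroids, against 5254 (wt/GFP) and 5400 (wt) in monolayers, and fell by 2.15 ± 0.13 log2 units (limma adjusted p = 5.09e-13). The mitotic cyclins CCNB1 and CCNB2 fell by 2.00 ± 0.12 and 1.73 ± 0.13. The 1 other tested probe set of CCNB2 was not called. CKS2, the paralog of CKS1B, had a change of -0.45 ± 0.13 (adjusted p = 0.00837). On brightest probe sets the log2 changes of the later genes ran from -2.15 for CCNA2 to -0.45 for CKS2. Those of the 9 called G1 genes ran from -2.02 for CCNE2 to -0.64 for CCNE1, so the ranges overlapped. A difference in size was not tested. The proliferation markers MKI67, PCNA, TOP2A and MCM2 were all called lower (4 of 4), with summed signals of 15790 (wt/GFP) and 19180 (wt) in spheroids, against 37450 (wt/GFP) and 39310 (wt) in monolayers, and their part in the falls of the G1 genes was not tested.

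Of 6 tested CDK inhibitors, 3 were called higher, 1 lower and 2 not called as deposited. With median centring 2 were called higher and 2 lower. CDKN1B, which encodes p27, the protein that SKP2 and CKS1B mark for degradation, had a signal of 4284 (wt/GFP) and 5136 (wt) in spheroids, against 3072 (wt/GFP) and 2634 (wt) in monolayers. It rose by 0.72 ± 0.13 log2 units (limma adjusted p = 7.23e-05), the opposite direction to SKP2 and CKS1B, but was not called with median centring (0.33) or with scaling on the hybridisation controls (0.24). CDKN1C, encoding p57, and CDKN2B, encoding the CDK4 and CDK6 inhibitor p15, rose under all 4 scalings, by 2.80 ± 0.16 and 2.62 ± 0.26 as deposited. CDKN2A, whose locus encodes the CDK4 and CDK6 inhibitor p16, was the one called lower, at -0.70 ± 0.13 (adjusted p = 0.000124). The 1 other tested probe set of CDKN2A was not called. CDKN1A, the inhibitor p21 induced by p53, was not called, with 3405 (wt/GFP) and 2832 (wt) in spheroids, against 3209 (wt/GFP) and 2820 (wt) in monolayers, but had -0.34 and was called lower with median centring.

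Of 10 genes of the retinoblastoma and E2F families, 3 were called higher and 3 lower as deposited. The split was 3 higher and 5 lower with quantile normalization, 3 and 7 with median centring, and 2 and 7 with scaling on the hybridisation controls. RBL2, encoding the p130 pocket protein of resting cells, had 3307 (wt/GFP) and 3640 (wt) in spheroids, against 1058 (wt/GFP) and 957 (wt) in monolayers, a rise of 1.77 ± 0.13 log2 units (limma adjusted p = 3.98e-11). E2F5, a repressor E2F, rose by 1.44 ± 0.17. RBL1, of the same family as RBL2, fell by 1.28 ± 0.19 and was called lower under all 4 scalings. E2F4 had -0.40 ± 0.18, not called as deposited but called lower under the other 3 scalings. E2F3 had -0.19 ± 0.13 and was not called as deposited. TFDP1 fell by 0.99 ± 0.13, and TFDP2 rose by 1.03 ± 0.15. E2F2, an activator E2F, fell by 1.35 ± 0.17, while its 2 dimmer probe sets had -1.03 ± 0.53 and -0.59 ± 0.57 and were not called (adjusted p = 0.124 and 0.443). E2F1, also an activator, had -0.62 ± 0.28 on its brightest probe set (adjusted p = 0.0836), which was called lower under the other 3 scalings, and its other probe set, 204947_at, was called lower as deposited at -0.85 ± 0.32 (adjusted p = 0.0384). RB1 itself had -0.13 ± 0.13 and was not called as deposited (adjusted p = 0.436), but was called lower with median centring and with scaling on the hybridisation controls, while its dimmer probe set 211540_s_at was called higher at 1.23 ± 0.43 (adjusted p = 0.0235).

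Of 5 genes for CDK activation, 2 were called lower. CDC25A, the phosphatase that activates CDK2, had 80.1 (wt/GFP) and 204 (wt) in spheroids, against 1449 (wt/GFP) and 1423 (wt) in monolayers, and its log2 signal fell by 3.34 ± 0.22 (limma adjusted p = 3.85e-12). MNAT1, the assembly factor of the CDK-activating kinase, fell by 0.61 ± 0.15, while its kinase CDK7 and cyclin CCNH had -0.20 and 0.07 and were not called. Of 9 genes for SCF ligases and cyclin turnover, 2 were called lower, CUL1 and RBX1, the scaffold and RING subunit of the SKP2 ligase, at -0.49 ± 0.14 and -0.54 ± 0.13. The 1 other tested probe set of CUL1 was not called. SKP1, the adaptor that SKP2 binds, had 32320 (wt/GFP) and 33150 (wt) in spheroids, against 28890 (wt/GFP) and 38140 (wt) in monolayers, and was not called on this brightest probe set as deposited (change -0.020, adjusted p = 0.931), though it was called lower under the other 3 scalings. Of its 3 other tested probe sets, 2 were called lower, 200711_s_at at -0.68 ± 0.12 (adjusted p = 6.71e-05) and 200719_at at -0.49 ± 0.18 (adjusted p = 0.0286). FBXW7, the receptor for cyclin E, had -0.16 ± 0.14 and was not called (adjusted p = 0.399), but was called lower with median centring and with scaling on the hybridisation controls. Of its 3 other tested probe sets, the dim 239494_at was called lower at -1.70 ± 0.54 (adjusted p = 0.0138). Calls in the CDK activation and SCF groups grew to 5 of 5 and 7 of 9 after median centring, so their counts depend on the scaling. With the deposited scaling, CDK activation had 1 call without the wt/GFP monolayer array, and the SCF group had 1 without either wt array.

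**Figure D4:**
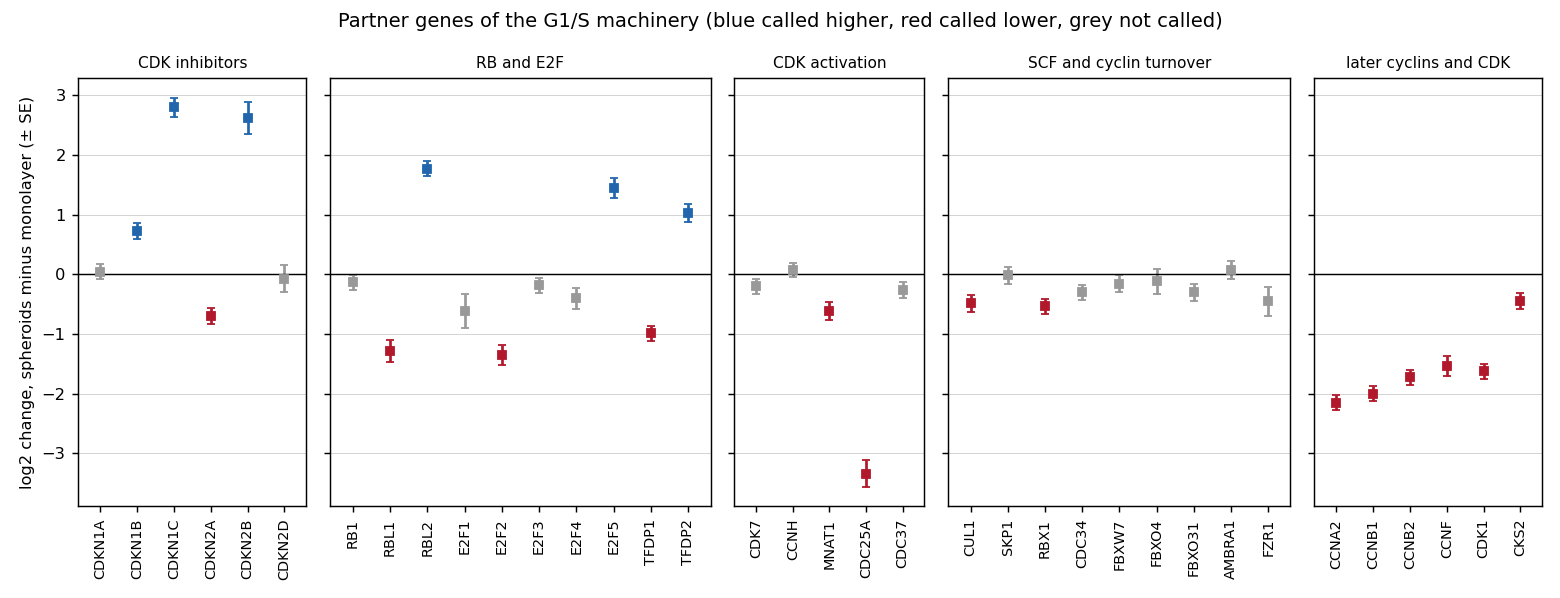
Log2 change in spheroids relative to monolayers (y axis, mean ± moderated SE) of 36 partner genes in 5 panels by role, blue where called higher, red where called lower and grey where not called. All 6 genes of the later cyclin and CDK panel lie below 0, and the CDK inhibitors CDKN1C and CDKN2B lie at 2.80 and 2.62.

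Profiles across the 4 arrays were also compared with all other genes, by Euclidean distance between log2 values centred on each gene's mean. The genes nearest to SKP2 were NEK2 and TTK, both mitotic kinases, and CCNB2, at distances of 0.0495, 0.0634 and 0.0763 log2 units. Nearest to CCNE2 were NCAPG, a condensin subunit, RAD51AP1, a factor of homologous recombination, and DLGAP5, a spindle protein, at 0.133, 0.141 and 0.143. The nearest profiles to CDK6 were those of PRR34-AS1, HNRNPDL and HROB, at 0.111, 0.125 and 0.127. With 4 arrays these distances mostly reflect the size of the culture change and the gap between the lines.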

How the data were processed

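Biotin-labelled material from total RNA was hybridised to 4 Affymetrix arrays. The authors deposited intensities that are linear MAS5 signals, a tool named in the submitters' processing notes without its version or settings. The equal trimmed means (2% left out at each end) show a common scaling, so a change in total RNA per cell is not visible. Detection calls were not used. Of the probe sets, 62 were controls, 41091 had 1 symbol, 1801 several and 11721 none; symbols come from the platform annotation, 41037 of them updated through RefSeq gene identifiers.

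Signals were taken as log2(signal + 14.0), the pseudocount being the 25th percentile, so fold changes of dim probe sets are understated. Probe sets with a mean above the 40th percentile, 5.48 (a signal of 30.6), were tested with limma 3.58.1 in R 4.3.3, with culture and cell line as additive terms and trended moderation. With 1 residual degree of freedom and 24.9 prior degrees, each SE rests mainly on other probe sets of like brightness. The residual is the disagreement between the lines, and p-values carry no spread between repeated cultures. P-values are two-sided and Benjamini-Hochberg adjusted over 32768 probe sets. A gene is represented by its probe set with the highest mean, called the brightest. The pairing comes from the cell line in the labels. The procedure was also run on simulated arrays. Their noise was drawn from the fitted errors, so that run cannot show whether those errors are right.

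Named are every member gene, up to 3 called genes with the largest change from each partner list, and the 3 nearest profiles of the 3 members with the largest change; other partner genes and the markers were named after their values were seen. Members and lists were chosen with earlier results of these data known. Alternatives were 3 other scalings, 2 pseudocounts, 2 filters, 1 probe set per gene, and moderation without trend or with robust fitting. Others left out the block, or each array in turn. These last fits held 1 term only, which was culture, or cell line when the lines were compared. Promoter sequences are from RefSeq (GRCh38.p14); 6 of the 10 genes matched. CCND1, CCND2, CCNE2 and CDK2 did not.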

Additional observations from a re-analysis of the deposited data

Results flagged for a closer look

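Of the 21 tested probe sets, 2 of CDK6 moved in opposite directions in the lines, a difference that was not tested because each line and culture had 1 array. On 224851_at the log2 change in spheroids relative to monolayers was 0.042 in wt/GFP and -1.60 in wt. On 207143_at it was -1.48 in wt/GFP and 0.086 in wt, from signals of 11.0 (wt/GFP) and 55.2 (wt) in spheroids, against 55.5 (wt/GFP) and 51.2 (wt) in monolayers. The other 4 tested probe sets of CDK6 were lower in spheroids in both lines.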

How the results depend on the processing

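Each of 15 alternatives was applied to the same arrays. The fits without 1 array also left out a model term, so they mix the loss of an array with a change of model. The count of G1 cyclin and CDK probe sets called lower (17) was 4 with moderation without trend and 9 with 1 probe set per gene, where 10 were tested. It ranged from 14 to 17 when single arrays were left out, and 0 were called higher in all 15. Without trend, 2 of the 9 genes were called, and the count over all probe sets (13137) was 2857, of which 677 were lower. With 1 probe set per gene the latter was 7050 of 14349. Without the replicate block of cell line, 16 probe sets were called lower, and the call of CDK6 224851_at was lost (adjusted p = 0.0825). Leaving the setting without trend aside, 14 of the 17 were called in every alternative in which they were tested; the exceptions were CDK6 224848_at, CDK6 224851_at and SKP2 203626_s_at. CCND2 231259_s_at turned to -0.23 with quantile normalization, -0.21 with median centring and -0.30 with scaling on the hybridisation controls. Its range over the fits without 1 array was -0.18 (without the wt spheroid array) to 0.54 (without the wt/GFP spheroid array), with -0.036 without the wt/GFP monolayer array. That of CDK6 207143_at was -1.43 (without the wt spheroid array) to 0.040 (without the wt/GFP spheroid array). CDK6 235287_at gained a call under the 3 other scalings (adjusted p = 0.0117 to 0.0298).

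The count between the lines (6) was 1 after quantile normalization, without a pseudocount or without a filter, and 10 at the stricter filter. It was 0 without trend, where 1611 probe sets had an unadjusted p under 0.05 in limma. In this comparison the fits without the block or without 1 array left out culture. The culture change then entered their error, so they cannot decide how the lines differ. Without trend, called genes numbered 2 for CDK inhibitors, 3 for the retinoblastoma and E2F families, 1 for CDK activation and 0 for the SCF group. After median centring they were 10 of 10 for the retinoblastoma and E2F families, 5 for CDK activation and 7 for the SCF group. Scaling to hybridisation controls gave 4 for CDK activation and 7 for the SCF group, and quantile normalization gave 5 for the SCF group. Leaving out single arrays gave 1 (without the wt/GFP monolayer array) to 3 for CDK activation and 1 (without the wt spheroid or wt monolayer array) to 2 for the SCF group. The causes were not tested. Signals near background limit CCND2 and the dim CDK6 probe sets, and 2 arrays per culture limit every value.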
